A study of Mus musculus with 8 samples.

Results

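The transcripts of 7 genes that encode fatty acid elongases and desaturases were examined in the liver: Elovl1, Elovl2, Elovl5, Fads1, Fads2, Fads6 and Scd2. The members were taken by symbol from a deposited table of 17810 genes, and all 7 were listed and passed the filter on low counts. RNA-Seq had been performed on 1 library from each of 8 livers of male littermates that were 5 months old, had been switched to CD-HFD, a diet rich in fat and without added choline, at 8 weeks of age and had stayed on it for 3 months. The 4 WT mice are labelled only as wild type, and the 4 HKO mice carried miR-33 loxP/loxP alleles with Cre recombinase under the albumin promoter (AlbCRE), which is directed at hepatocytes. All 8 mice received the same diet and were fasted before collection, so no liver on a control diet enters the comparison. The comparison asks how the loss of miR-33 in hepatocytes goes with transcript levels in the fatty liver.

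Mammals cannot make linoleic acid or alpha-linolenic acid, and the liver converts these dietary fatty acids into arachidonic acid and docosahexaenoic acid by alternating steps of desaturation and elongation in the endoplasmic reticulum. FADS2, the delta-6 desaturase, opens the pathway, ELOVL5 lengthens its product, FADS1, the delta-5 desaturase, follows, and ELOVL2 carries out the later elongations towards docosahexaenoic acid. ELOVL1 mainly lengthens saturated and monounsaturated very long chains, SCD2 is a stearoyl-CoA desaturase that makes monounsaturated fatty acids, and FADS6 is a family member whose substrate is not well defined. Transcription of the polyunsaturated branch is known to respond to SREBP-1 and to PPAR alpha, and dietary polyunsaturated fatty acids lower it.

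miR-33 lies within an intron of Srebf2 and represses its targets through its seed, bases 2 to 8 of the mature strand. The mature sequence of miR-33-5p, from RefSeq on GRCm38.p6 (chr15:82198127-82198147, plus strand), is given with the seed in capitals because a match to it is the sequence feature by which the removed miRNA could meet a transcript.
miR-33-5p: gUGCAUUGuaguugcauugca
Among the 7 genes, matches were sought in the 3′UTR, the longest where several are annotated, either to bases 2 to 8 (CAATGCA) or to bases 2 to 7 followed by A (AATGCAA). Elovl2 alone held one, a match of the second kind that starts at base 950 of a 3′UTR of 2913 bases, shown here with the matching bases in capitals.
Elovl2 3′UTR: cttcgcatagaAATGCAAttggaatattt
The 3′UTRs of Elovl1 (834 bases), Elovl5 (1711), Fads1 (1955), Fads2 (1498), Fads6 (3884) and Scd2 (3664) held neither match. Over 11554 genes with an annotated 3′UTR, 2037 (17.6%) held at least 1 such match. A match is a description of letters, and no binding was measured.

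Across the 7 genes, Elovl5 and Fads2 were lower in every HKO liver than in any WT liver, whereas the levels of Elovl1, Elovl2, Fads1, Fads6 and Scd2 overlapped between the genotypes. The mean of Elovl5 was 2.37-fold lower and that of Fads2 1.78-fold lower in HKO livers on the fitted scale, but neither passed the threshold of an adjusted p under 0.05 in edgeR's quasi-likelihood test, which called 0 of the 7 genes. For comparison, the test called 638 of the 12395 genes tested, with 3.44% of the genes tested called lower and 1.71% called higher in HKO livers. At an unadjusted p under 0.05 it picked 2 of the 7, both lower in HKO livers, beside 10.6% of all genes tested in that direction. Every HKO liver lay below every WT liver for 2 of the 7 genes, beside 7.19% of all genes tested, and 0 of the 7 lay above in every HKO liver. The library totals ranged from 12174339 to 18735785 counts, and the HKO libraries carry the earlier and the WT libraries the later order numbers, so that library order and genotype cannot be told apart. Mir33 itself was not analysed here, and the genotype of a liver rests on its label.

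Elovl5 encodes the elongase that acts after the delta-6 step, and it spans chr9:77917365-77984520 on the plus strand of GRCm38. Its level was 2372, 2111, 1270 and 1421 CPM (the count relative to the TMM-scaled size of its library) in WT livers 1 to 4, and 867, 756, 402 and 1008 CPM in HKO livers 1 to 4. The lowest WT liver, replicate 3, thus stood above the highest HKO liver, replicate 4, and HKO replicate 3 was far below the other HKO livers. The mean was 1793 ± 532 CPM in WT livers and 758 ± 259 CPM in HKO livers (SD, n = 4 each). The log2 fold change of HKO over WT was -1.24 with a standard error of 0.32, a 95% interval of -1.99 to -0.49 and an adjusted p of 0.078 by edgeR. This call turned on the model for the spread between livers. DESeq2 gave an adjusted p of 0.0039 for Elovl5 and called 1 of the 7 genes lower, beside 5.07% of all genes tested. Limma-voom gave an adjusted p of 0.0313 and also called 1 of 7, beside 3.25% of all genes. EdgeR without robust dispersion estimates, a setting added after the data were seen, gave 0.0332 and likewise called 1 of 7, beside 3.34%. Without HKO replicate 3, the liver with the lowest level, the log2 fold change was smaller in size, at -1.03, and the adjusted p by edgeR was 0.0473.

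Fads2 encodes the delta-6 desaturase, the first step of the pathway, and spans chr19:10062765-10101504 on the minus strand. WT livers 1 to 4 held 1124, 787, 539 and 554 CPM of Fads2, and HKO livers 1 to 4 held 516, 437, 283 and 450 CPM. The separation was narrow, since WT replicates 3 and 4 lay only slightly above HKO replicate 1, while WT replicate 1 stood well above the rest. The mean was 751 ± 274 CPM in WT livers and 422 ± 98.9 CPM in HKO livers (SD, n = 4 each). The log2 fold change was -0.83 with a standard error of 0.28, a 95% interval of -1.48 to -0.18 and an adjusted p of 0.152 by edgeR. DESeq2 and limma-voom gave adjusted p-values of 0.0817 and 0.093, so the difference did not pass the threshold by any of the 3 tools. Without WT replicate 1, the liver with the highest level, the log2 fold change was -0.57.

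Fads1 encodes the delta-5 desaturase, which follows the ELOVL5 step, and spans chr19:10182888-10196873 on the plus strand, 81141 bases from Fads2. Its level was 1081, 750, 567 and 538 CPM in WT livers 1 to 4, and 592, 547, 285 and 650 CPM in HKO livers 1 to 4. The genotypes overlapped, since HKO replicates 1, 2 and 4 lay within the WT range and only HKO replicate 3 lay below it. The means of 734 ± 250 and 519 ± 161 CPM (SD, n = 4 each) gave a log2 fold change of -0.50 with a standard error of 0.32, a 95% interval of -1.24 to 0.24 and an adjusted p of 0.451 by edgeR. The interval holds both no difference and a decrease about as large as the estimate for Elovl5. With WT replicate 1 left out the log2 fold change became -0.25, and with HKO replicate 3 left out it became -0.30.

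Elovl2, which encodes the elongase of the later steps towards docosahexaenoic acid, spans chr13:41182382-41220404 on the minus strand. Its level was 1348, 998, 853 and 880 CPM in WT livers 1 to 4, and 1005, 1004, 811 and 1472 CPM in HKO livers 1 to 4. HKO livers held both the lowest and the highest level, with WT replicate 1 next to the top. The means were 1020 ± 228 and 1073 ± 281 CPM (SD, n = 4 each), and the log2 fold change was 0.07 with a standard error of 0.20, a 95% interval of -0.37 to 0.52 and an adjusted p of 0.889 by edgeR. The sign of this estimate turned when libraries were scaled by their total count (-0.01) and when HKO replicate 4 was left out (-0.12).

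Elovl1, the very long chain elongase, spans chr4:118428093-118432953 on the plus strand and was far less abundant. WT livers 1 to 4 held 24.4, 22.6, 17.9 and 15.9 CPM of Elovl1, and HKO livers 1 to 4 held 15.9, 15.1, 17.4 and 18.6 CPM. WT replicates 1 and 2 exceeded all HKO livers, whereas WT replicates 3 and 4 lay among them. The log2 fold change was -0.27 with a standard error of 0.14, a 95% interval of -0.57 to 0.04 and an adjusted p of 0.328 by edgeR, and it was -0.16 without WT replicate 1. Elovl1 shares 53 exonic bases with Cdc20, which lies on the other strand, and whether the counting used strand is not given in the sources used here.

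Fads6, the family member without a well defined substrate, spans chr11:115278627-115297563 on the minus strand and varied least among the 7 genes. Its level was 148, 125, 156 and 154 CPM in WT livers 1 to 4, and 178, 153, 142.8 and 141 CPM in HKO livers 1 to 4. The ranges overlapped from 140.8 to 156 CPM, with WT replicate 2 below the HKO livers and HKO replicate 1 above the WT livers. The log2 fold change was 0.08 with a standard error of 0.10, a 95% interval of -0.14 to 0.29 and an adjusted p of 0.736 by edgeR, and it was -0.01 with total count scaling. This interval was the narrowest of the 7.

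Scd2, a stearoyl-CoA desaturase that is prominent in brain and in fetal tissues and low in adult liver, spans chr19:44293676-44306863 on the plus strand. Its level was 11.4, 8.94, 10.1 and 8.48 CPM in WT livers 1 to 4, and 13.0, 18.4, 5.97 and 9.36 CPM in HKO livers 1 to 4. The HKO livers spread on both sides of the WT livers, with replicate 2 at the top and replicate 3 at the bottom. The log2 fold change was 0.26 with a standard error of 0.30, a 95% interval of -0.42 to 0.94 and an adjusted p of 0.705 by edgeR, and it was -0.04 without HKO replicate 2. In that liver the cholangiocyte markers Krt19 and Epcam stood at 16.9 and 16.5 CPM, against at most 1.075 CPM in any other liver, and the summed level of 6 cholangiocyte markers was 112 CPM, against 30.9 to 53.3 CPM in the other 7 livers. Spp1 gave 63.2 CPM of that sum, and Krt7 (3.32 CPM) and Cldn7 (3.86 CPM) were also highest in HKO replicate 2. Sox9, the remaining marker, was instead highest in HKO replicate 3 (15.5 CPM, against 7.87 CPM in HKO replicate 2), where Scd2 was lowest. The part of cholangiocytes in the Scd2 value was not tested. The counts of Scd2 were fractional in all 8 livers and those of Elovl2 in 7 of 8. The source of these fractions was not examined. Scd2 contains the 61 bases of Mir5114, whereas the exons of Elovl2 overlap no other annotated gene.

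**Figure D1:**
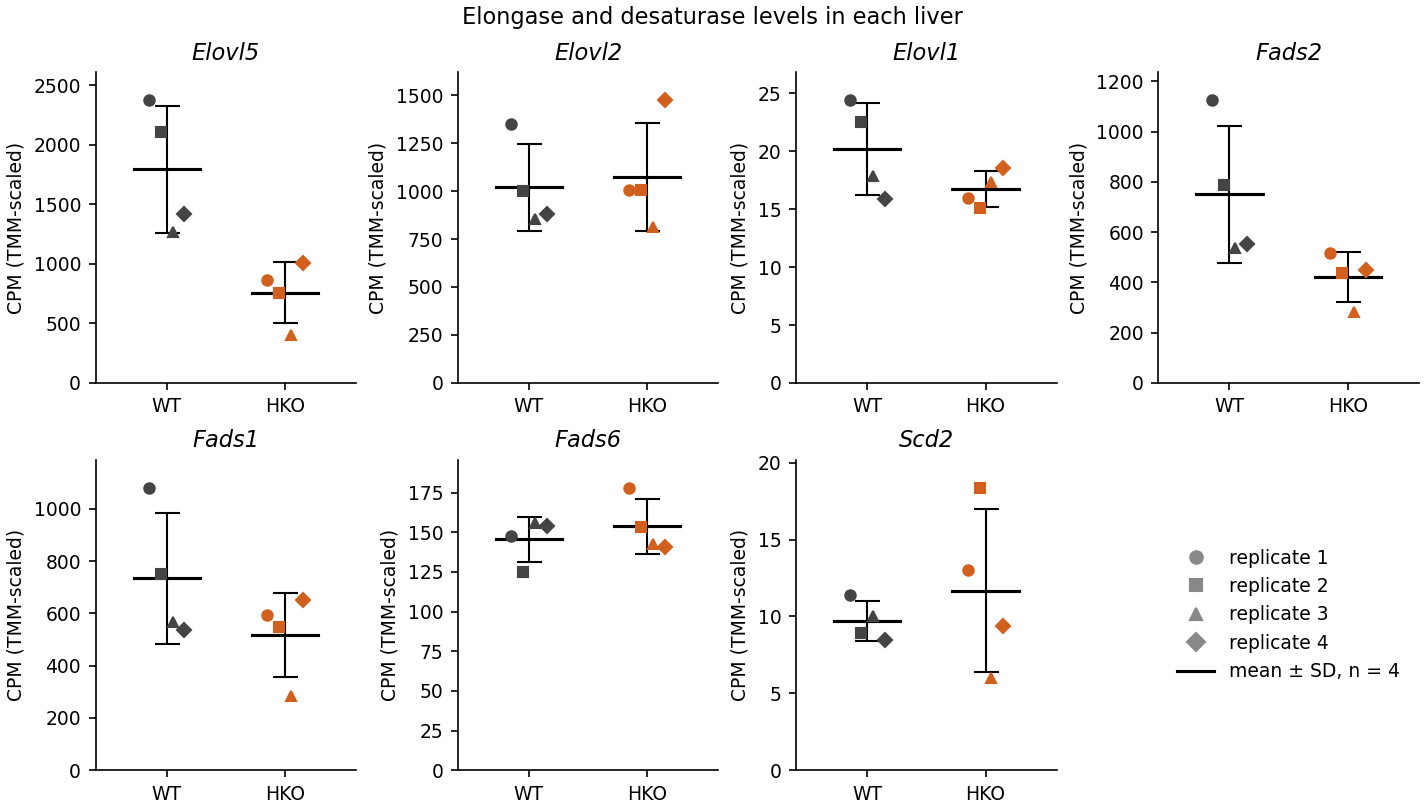
Level of each of the 7 genes, in CPM scaled by TMM on a linear axis from 0, in the 4 WT and the 4 HKO livers, with marker shape for the replicate number and bars for the mean ± SD. The HKO livers lie below all WT livers for Elovl5 (402 to 1008 against 1270 to 2372 CPM) and Fads2 (283 to 516 against 539 to 1124 CPM), and the genotypes overlap for Elovl2, Elovl1, Fads1, Fads6 and Scd2.

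**Figure D2:**
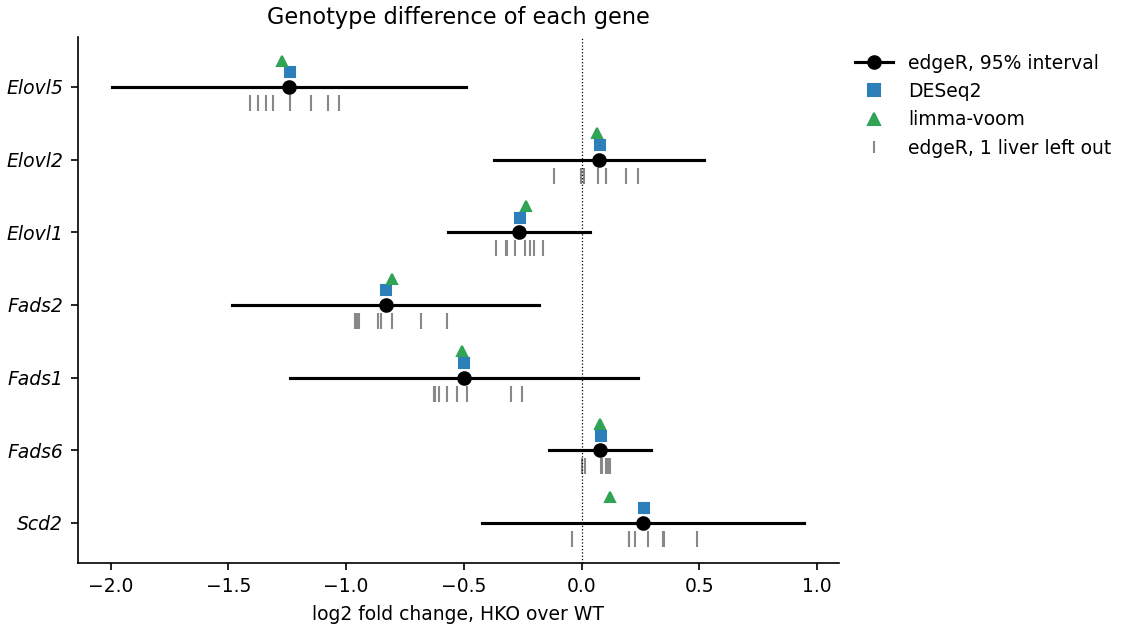
Log2 fold change of HKO over WT for each gene by edgeR (point, with its 95% interval), DESeq2 (square) and limma-voom (triangle), with a tick for each edgeR fit that leaves out 1 liver. The edgeR intervals of Elovl5 (-1.99 to -0.49) and Fads2 (-1.48 to -0.18) lie below 0, and those of Elovl1, Elovl2, Fads1, Fads6 and Scd2 include it.

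Several of the genes shared their high and low livers. WT replicate 1 was the highest WT liver and HKO replicate 3 the lowest HKO liver for Elovl2, Elovl5, Fads1, Fads2 and Scd2, and WT replicate 1 was also the highest WT liver for Elovl1. Relative to the mean over all 8 livers, WT replicate 1 was higher by 1.09 on the log2 scale for Elovl5, 1.05 for Fads2, 0.87 for Fads1 and 0.40 for Elovl2. HKO replicate 3 stood at -1.47 for Elovl5, -1.05 for Fads1, -0.94 for Fads2 and -0.34 for Elovl2. Fads6 showed neither excursion, at -0.01 and -0.06 in these livers. After subtraction of the genotype means, Pearson's r of the log2 CPM over the 8 livers was 0.965 between Elovl5 and Fads1, 0.95 between Fads1 and Fads2, 0.906 between Elovl5 and Fads2, 0.874 between Elovl2 and Fads1, 0.86 between Elovl2 and Elovl5 and 0.777 between Elovl2 and Fads2. The same measure with these 4 genes ran from 0.50 to 0.65 for Elovl1, from 0.27 to 0.64 for Scd2 and from -0.21 to 0.06 for Fads6. These are descriptions over 8 libraries that share depth and cell composition between genes, and no test was made.

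The spread behind these values was wide beside that of all genes tested for Elovl5, Fads1, Scd2, Fads2 and Elovl2, but not for Elovl1 or Fads6. The SD within genotypes on the log2 scale was 0.51 for Elovl5, 0.50 for Fads1, 0.50 for Scd2, 0.44 for Fads2, 0.33 for Elovl2, 0.22 for Elovl1 and 0.15 for Fads6, whereas its median was 0.20 over all 12395 genes and 0.13 over the 1454 genes with a mean of at least 100 CPM. Elovl5 thus varied more between livers of one genotype than 88.9% of all genes tested, Elovl1 more than 56.6% and Fads6 more than 33.1%. The median over genes with at least 100 CPM does not apply to Elovl1 and Scd2, whose means lie below that level.

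The livers with high and low levels also differed in the summed level of hepatocyte markers, which was mostly that of Alb. The summed level of the 7 hepatocyte markers in the table (Alb, Apoa1, Ttr, Cps1, Serpina1a, Fgb and Hnf4a) ranged from 80120 to 114000 CPM in WT livers and from 72630 to 126000 CPM in HKO livers, with WT replicate 1 highest among WT livers, HKO replicate 4 highest of all and HKO replicate 3 lowest of all. Alb alone, which makes up most of the sum, stood at 96090 CPM in WT replicate 1, 98810 CPM in HKO replicate 4 and 47060 CPM in HKO replicate 3. The other markers did not all follow the sum. HKO replicate 3 was the highest of the 8 livers for Apoa1 (6076 CPM) and Fgb (6716 CPM). For Cps1 (4888 CPM) and Hnf4a (499 CPM) it was the lowest HKO liver but stood above every WT liver. WT replicate 1 was the lowest of the 8 livers for Cps1 (1822 CPM) and the highest WT liver for Apoa1 (5485 CPM). Pearson's r of this sum over the 8 livers, both on the log2 scale, was 0.971 with Elovl2, 0.703 with Fads1, 0.476 with Scd2, 0.424 with Fads2, 0.364 with Elovl5, 0.346 with Elovl1 and -0.02 with Fads6. After subtraction of the genotype means it was 0.973 for Elovl2, 0.936 for Fads1, 0.906 for Elovl5, 0.813 for Fads2, 0.54 for Elovl1, 0.459 for Scd2 and -0.07 for Fads6. The ranges of the sum overlapped between the genotypes. EdgeR called 4 of the 7 markers higher in HKO livers (Cps1, Serpina1a, Fgb and Hnf4a), beside 1.71% of all genes tested, and 0 lower. Alb was not called (log2 fold change -0.03, edgeR adjusted p = 0.966). The part of hepatocyte content in the levels of the 7 genes was not tested. In whole liver RNA, fewer cells of a type and less RNA per cell cannot be told apart. The summed markers of macrophages (99.95 to 259 CPM in WT, 75.0 to 244 CPM in HKO), stellate cells (391 to 501 against 345 to 498 CPM) and sinusoidal endothelial cells (99.1 to 338 against 172 to 404 CPM) overlapped between the genotypes, as did those of lymphocytes (10.3 to 17.5 against 13.4 to 20.5 CPM) and adipocytes (0.90 to 7.05 against 0.09 to 5.06 CPM). No marker in the table was at 0 in all 8 livers.

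**Figure D3:**
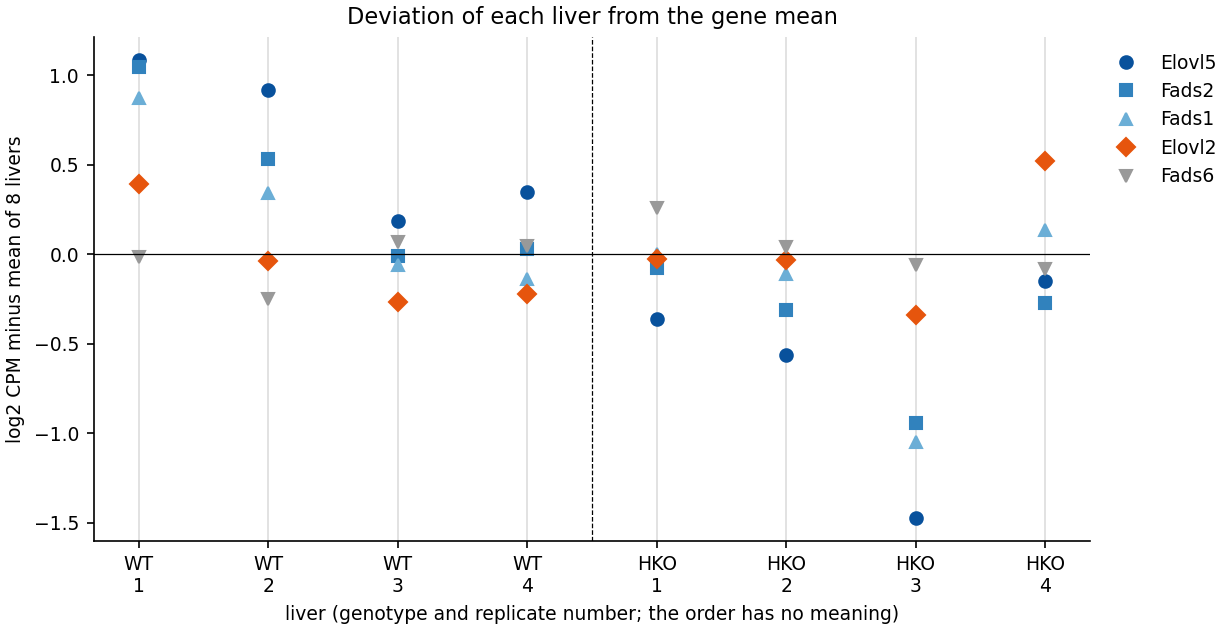
Log2 CPM of Elovl5, Fads2, Fads1, Elovl2 and Fads6 in each liver minus the gene's mean over the 8 livers; each column of points is 1 liver. In WT replicate 1 Elovl5, Fads2 and Fads1 stand together at 1.09, 1.05 and 0.87, and in HKO replicate 3 they stand at -1.47, -0.94 and -1.05, while Fads6 stays within -0.25 to 0.26 in all livers.

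The order of the genes by level was compared per kilobase of annotated exon, as CPM per kb. In WT livers Elovl5 was the most abundant, at 509 ± 151 CPM per kb (SD, n = 4), with no overlap with the next gene. Elovl2 (257 ± 57.4), Fads2 (228 ± 83.0) and Fads1 (153 ± 51.9 CPM per kb) followed with overlapping ranges between neighbours. Fads6 (21.9 ± 2.13), Elovl1 (7.41 ± 1.45) and Scd2 (1.78 ± 0.24 CPM per kb) formed a lower group, each clear of its neighbours. In HKO livers the first place went to Elovl2, at 271 ± 70.9 CPM per kb, and Elovl5 came second at 215 ± 73.6, with overlapping ranges. Fads2 (128 ± 30.02) and Fads1 (107.8 ± 33.5 CPM per kb) again overlapped, and Fads6 (23.1 ± 2.58), Elovl1 (6.14 ± 0.56) and Scd2 (2.14 ± 0.97 CPM per kb) kept their order. With the length of the longest transcript in place of all exons, Fads1 (150 CPM per kb) stood above Fads2 (134 CPM per kb) in HKO livers. Elovl2 (279 ± 73.2) and Elovl5 (272.5 ± 93.1 CPM per kb) were then nearly level in HKO livers, with overlapping ranges.

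Whether pairs of these genes differed in their genotype difference was tested on the log2 ratio of a pair within each liver, by a two-sided exact permutation test of 4 ratios. The log2 ratio of Elovl2 to Elovl5, the late and the early elongase, was -0.82, -1.08, -0.58 and -0.69 in WT livers 1 to 4, and 0.21, 0.41, 1.01 and 0.55 in HKO livers 1 to 4. The CPM of Elovl5 thus exceeded that of Elovl2 in all WT livers and the reverse held in all HKO livers. The difference of the means was 1.34, with an exact p of 0.0286, the smallest that 70 allocations of the livers allow, and 0.0571 after adjustment over the 4 ratios. HKO replicate 3 had the highest ratio, and without it the difference was 1.18.

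The log2 ratio of Elovl1 to Elovl5 also separated the genotypes. It ran from -6.60 to -6.14 in WT livers, and it was -5.76, -5.63, -4.52 and -5.75 in HKO livers 1 to 4. The difference was 1.02 (exact permutation p = 0.0286, adjusted 0.0571), and without HKO replicate 3 it was 0.72. The ratio of Fads2 to Elovl5 ran from -1.42 to -1.08 in WT livers, and HKO livers 1 to 4 stood at -0.75, -0.79, -0.51 and -1.16, so that only HKO replicate 4 lay among the WT livers. The difference was 0.47 (exact permutation p = 0.0571, adjusted 0.0571). The ratio of Fads1 to Fads2, the clustered delta-5 and delta-6 desaturase genes, was -0.06, -0.07, 0.08 and -0.04 in WT livers and 0.20, 0.32, 0.01 and 0.53 in HKO livers 1 to 4. HKO replicate 3, the lowest for both genes, was the one whose ratio fell among the WT livers, and the difference was 0.29 (exact permutation p = 0.0571, adjusted 0.0571). None of the 4 ratios passed the threshold after adjustment. The smallest possible exact p, 0.0286, could pass after adjustment only if most of the 4 ratios reached it. The adjusted values therefore say little about any single ratio. All ratios but that of Fads1 to Fads2 share Elovl5, so they are not separate tests.

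**Figure D4:**
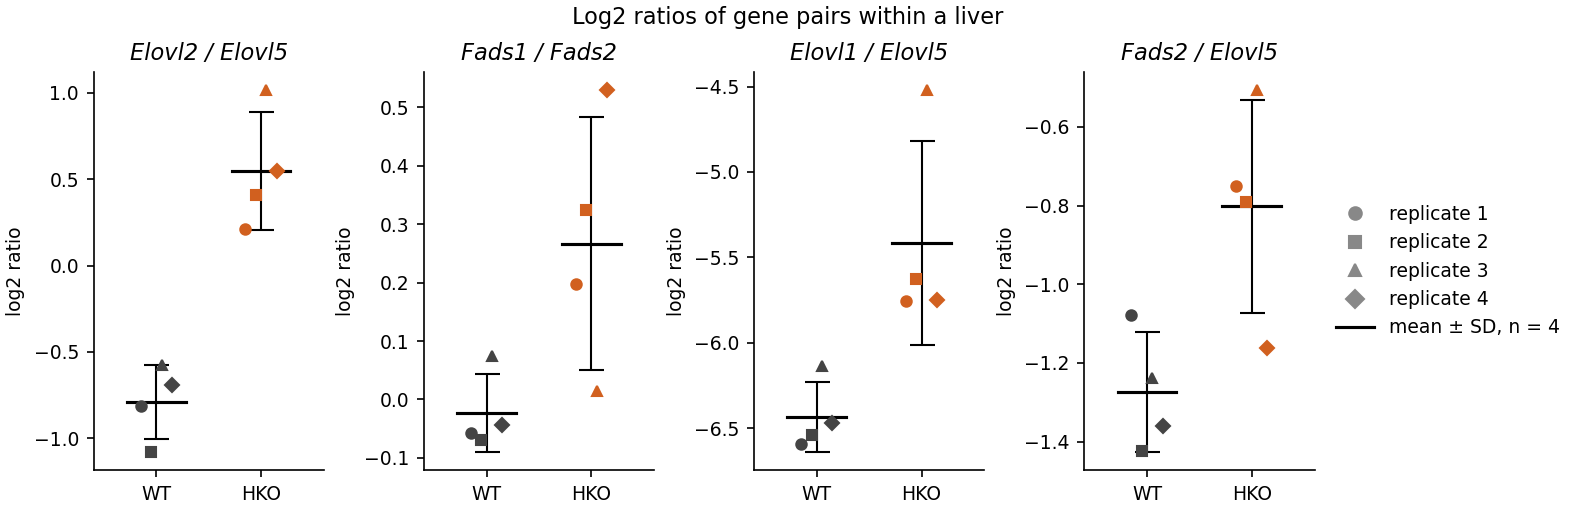
Log2 ratio of CPM of 2 genes within each liver for 4 pairs, with marker shape for the replicate number and bars for the mean ± SD; each panel has its own axis. The ratios of Elovl2 to Elovl5 (WT at most -0.58, HKO at least 0.21) and of Elovl1 to Elovl5 (WT at most -6.14, HKO at least -5.76) separate the genotypes, whereas those of Fads1 to Fads2 and Fads2 to Elovl5 overlap in 1 HKO liver.

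The genes whose level followed each member most closely over the 8 livers were sought among 7273 genes with a mean of at least 10 CPM. For Elovl5 they were Me1, malic enzyme 1, which supplies NADPH for lipid synthesis (r = 0.98, and 0.939 without the genotype means), and Pctp, a phosphatidylcholine transfer protein (r = 0.98 and 0.94). Me1 had a log2 fold change of -1.31 with an adjusted p of 0.0678 by edgeR, and Pctp -1.10 with 0.0543, so both stood near the threshold, like Elovl5. For Fads2 they were Tor1a (r = 0.975) and Klf6 (r = 0.974), and for Fads1 Sdha, a subunit of succinate dehydrogenase (r = 0.98), and Slc39a8, a metal ion transporter (r = 0.966). Elovl2 was followed by Dcaf6 (r = 0.968) and Hspa9, the mitochondrial HSP70 (r = 0.941), Elovl1 by Tbc1d20 (r = 0.947) and Dhx32 (r = 0.936), Fads6 by Ppp2r5e (r = 0.959) and Polr3b (r = 0.948), and Scd2 by Irak4 (r = 0.91) and Ttc23 (r = 0.905). Each pair holds the highest of 7273 correlations over 8 livers, and these are descriptions without a test.

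Other genes of both families gave a single call. Of 10 other elongase and desaturase genes, 8 were tested, 0 were called higher and 1 lower in HKO livers by edgeR, beside 1.71% and 3.44% of all genes tested, with a median log2 fold change of -0.42 beside 0.01 over all genes tested. The 1 was Fads3, a desaturase gene 2654 bases from Fads2, which fell from 7.28 ± 3.16 to 3.15 ± 0.45 CPM (SD, n = 4 each; log2 fold change -1.19, edgeR adjusted p = 0.0257), although limma-voom did not call it (adjusted p = 0.0612). Scd1, the main hepatic stearoyl-CoA desaturase, stood at 20910 ± 7331 CPM in WT livers and at 11630 ± 7594 CPM in HKO livers (log2 fold change -0.85, edgeR adjusted p = 0.462). Within genotypes its r was 0.881 with Elovl5, 0.856 with Fads1 and 0.851 with Fads2. Elovl6, the elongase of palmitate, had a log2 fold change of -0.34 (edgeR adjusted p = 0.644). Elovl3, an elongase of saturated and monounsaturated chains, stood at 67.9 ± 7.70 and 124 ± 46.9 CPM (log2 fold change 0.87), with an adjusted p of 0.174 by edgeR and of 0.00679 by DESeq2.

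The enzymes that complete each elongation cycle and those that feed electrons to the desaturases were tested in the same fit. Over all genes tested, 1.71% were called higher and 3.44% lower in HKO livers. Of the 6 tested genes of the elongation cycle after the condensing step, 0 were called higher and 1 lower, with a median log2 fold change of -0.23. The 1 was Hsd17b12, the 3-ketoacyl-CoA reductase of the cycle, which fell from 357 ± 34.2 to 230 ± 18.8 CPM (log2 fold change -0.63, edgeR adjusted p = 0.00362). All 5 genes of cytochrome b5 and its reductases were tested, 0 were called in either direction, and their median was -0.10.

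Genes of the steps after the desaturases were counted in the same way, against the 3.44% of all genes tested that were called lower. Of 14 genes that activate polyunsaturated acyl chains or place them in phospholipids, 10 were tested, 0 were called higher and 2 lower, with a median of -0.36. They were Acsl1, a long-chain acyl-CoA synthetase (log2 fold change -0.47, edgeR adjusted p = 0.0437), and Lpcat3, which places arachidonic acid in phosphatidylcholine (-0.41, edgeR adjusted p = 0.0476), and limma-voom called only the former. Of 12 genes of peroxisomal beta-oxidation, which shortens the last intermediate to docosahexaenoic acid and degrades very long chains, all were tested, 0 were called higher and 9 lower, with a median of -0.57. Acaa1b, a peroxisomal thiolase, fell from 683 ± 95.6 to 228 ± 15.0 CPM (edgeR adjusted p = 5.55e-05). Hsd17b4 and Acaa1a, the bifunctional enzyme and a second thiolase, had log2 fold changes of -0.56 and -0.48 (edgeR adjusted p = 0.0046 each).

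Regulators of the desaturases and the enzymes that release or oxidise their products were considered last. Of 11 regulator genes, 0 were called higher and 2 lower, beside 1.71% and 3.44% of all genes tested, with a median log2 fold change of 0.10. The 2 were Insig2, which retains the SREBP precursors in the endoplasmic reticulum (-0.63, edgeR adjusted p = 0.0216), and Ppara, the nuclear receptor that drives peroxisomal oxidation genes (-0.33, edgeR adjusted p = 0.0409). Srebf1, the gene of SREBP-1, stood at 60.3 ± 9.11 and 64.5 ± 18.7 CPM (SD, n = 4 each; edgeR adjusted p = 0.86). Of 14 genes of release and oxygenation, 8 were tested and 2 were called lower, beside the same 3.44%, with a median of -0.03. They were Pla2g6, a calcium-independent phospholipase A2 (-1.09, edgeR adjusted p = 0.00115), and Ephx1, the microsomal epoxide hydrolase (-0.97, edgeR adjusted p = 0.00107). No gene of these 7 lists was called higher by edgeR, whereas DESeq2 called Elovl3 higher.

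**Figure D5:**
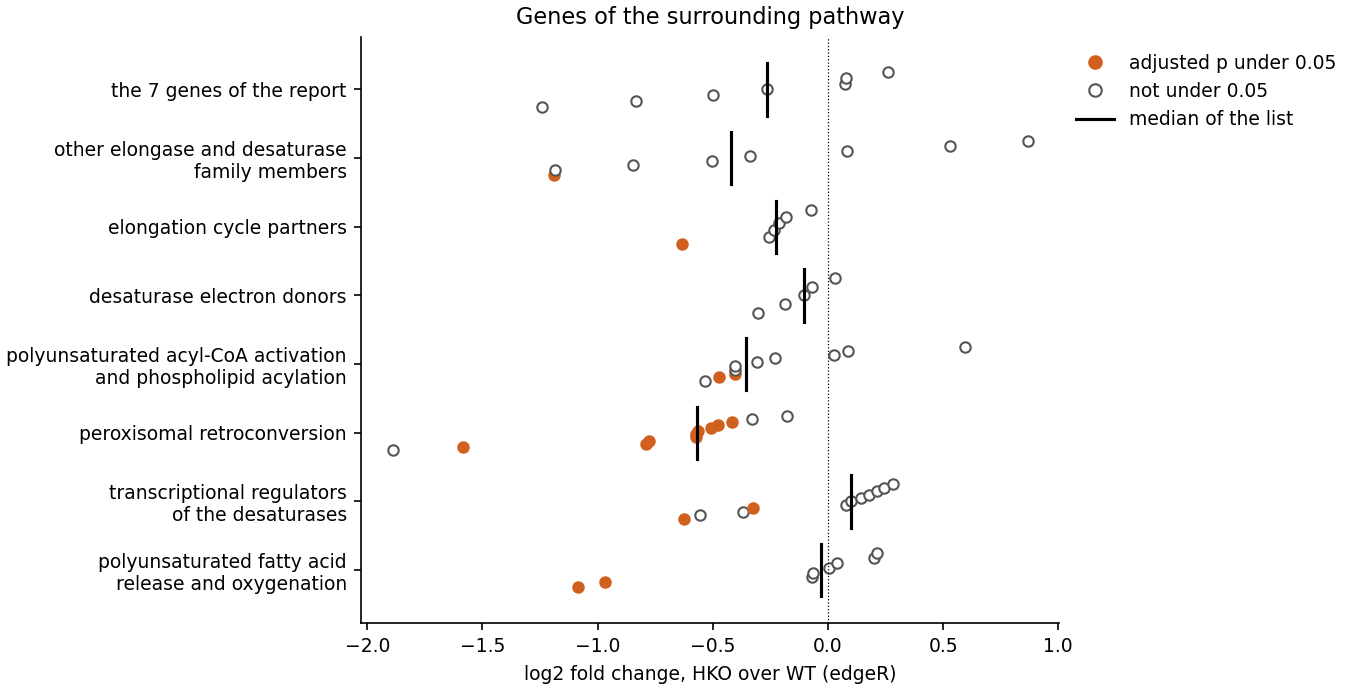
Log2 fold change of HKO over WT by edgeR for each tested gene of the 7 genes described and of 7 lists of related genes; filled points have an adjusted p under 0.05 and the vertical bars are the medians. In the peroxisomal list 9 of 12 genes are filled, all below 0, against 0 of the 7 elongase and desaturase genes described.

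The promoters of Elovl5 and Fads2 are shown because these genes were lower in every HKO liver. RefSeq windows from 250 bases before to 50 bases after an annotated start on GRCm38.p6 were found for 5 of the 7 genes, and were searched on both strands for 6 motifs: TCACNCCAC (sterol regulatory element), CCAAT (NF-Y), GGGCGG (Sp1), CACGTG (E-box), and the nuclear receptor repeats DR1 and DR4. The window of Elovl5 (chr9:77917115-77917414, plus strand) held CCAAT on the reverse strand with first bases at -71 and -17 from the start and CACGTG at -161, all in capitals.
Elovl5 promoter: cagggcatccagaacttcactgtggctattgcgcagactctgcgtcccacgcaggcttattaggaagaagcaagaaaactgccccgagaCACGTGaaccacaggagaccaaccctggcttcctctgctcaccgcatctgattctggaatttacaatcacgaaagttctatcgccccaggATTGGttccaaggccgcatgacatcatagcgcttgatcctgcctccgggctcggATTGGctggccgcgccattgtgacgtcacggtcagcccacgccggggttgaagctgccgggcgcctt
The window of Fads2 (chr19:10101454-10101753, minus strand) held GGGCGG at -186, in capitals.
Fads2 promoter: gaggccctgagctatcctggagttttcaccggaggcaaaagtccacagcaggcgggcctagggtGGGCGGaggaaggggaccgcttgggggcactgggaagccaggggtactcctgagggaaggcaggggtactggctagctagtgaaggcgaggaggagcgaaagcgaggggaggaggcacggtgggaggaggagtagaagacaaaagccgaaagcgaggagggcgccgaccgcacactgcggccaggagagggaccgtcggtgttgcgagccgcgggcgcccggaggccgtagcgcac
Such short motifs occur in many promoters. Over 32851 windows of the same length, 37.4% held CCAAT, 35.7% GGGCGG, 7.15% CACGTG and 1.24% TCACNCCAC. Elovl1 has 2 annotated starts, with 5 and 2 matches of GGGCGG and with 1 of CCAAT at the first that overlaps a GGGCGG match, Elovl2 has 2 starts, with 5 matches of GGGCGG at the first, and Fads6 held 1 match of GGGCGG. No window of the 5 genes held TCACNCCAC, DR1 or DR4, which says only that these letters are not in these windows. The GC content was 57.7% in the window of Elovl5 and 67% in that of Fads2, beside a median of 52.7% over all windows. Fads1 and Scd2 have no entry in the table of promoters.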

How the data were processed

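RNA-Seq of 8 livers (4 WT, 4 HKO; 1 library each) was used, with genotype and replicate number as the labels give them. Reads had been aligned with STAR and quantified in Partek, per the submitters' processing notes, which give no versions here. The authors deposited estimated counts per gene, from Partek's expectation-maximization quantification, without normalization; 80.3% of the values were whole numbers and 0 columns were left unmapped. A small RNA kit and rRNA depletion are both named in the labels, so the type and strandedness of the libraries are uncertain. Coordinates are as listed (GRCm38). Of the symbols, 17789 matched RefSeq genes, and 84.4% of these shared a start or an end.

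The estimated counts were rounded and tested with edgeR 4.0.16 in R 4.3.3 (TMM scaling, default expression filter with a minimum count of 10, robust quasi-likelihood test), with Benjamini-Hochberg adjustment over 12395 genes and a threshold of 0.05. Log2 CPM adds a prior count of 2. Ratios were compared over the 70 allocations of the 8 livers. Lists of genes were described by counts and medians. The alternatives comprised limma-voom (limma 3.58.1), DESeq2 1.42.0, other scalings and filters, the replicate number as a block, each liver left out in turn and, added after the data were seen, dispersions that were not robust. Python 3.11.15, numpy 2.4.6, pandas 2.3.3, scipy 1.17.1 and matplotlib 3.10.9 were used for the rest. A floor of 3 counts corresponds to 0.16 to 0.246 CPM and covers counting error only. Each library was taken to come from a different mouse, since the sample titles and the column names differ in animal number. The descriptions of the 4 WT samples, however, all begin with the same animal number, and this conflict in the labels could not be settled.

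The 7 genes, the lists, the markers and the tests were chosen with earlier results of these data known. All 7 genes are named; for each, the 2 genes with the highest Pearson correlation over the livers; and in each list the called genes, at most the 4 with the smallest adjusted p, with Fads3, Elovl3, Elovl6, Scd1, Srebf1 and Lpcat3 in any case. One gene that this rule would name is not reported here. The protein sequences were not analysed here.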

Additional observations from a re-analysis of the deposited data

Results flagged for a closer look

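In 36 groups of 4 livers, 1 liver stood far from the others of its genotype, where about 1.8 would be expected by chance. It was HKO replicate 3, whose log2 ratio of Elovl1 to Elovl5 was -4.52 while the other HKO livers lay between -5.76 and -5.63. The same liver had the lowest Elovl5 level of all 8 livers, 402 CPM, and the lowest summed hepatocyte markers, 72630 CPM, of which Alb gave 47060 CPM. Other markers of that sum did not share its low place. Apoa1 (6076 CPM) and Fgb (6716 CPM) were highest of all 8 livers there. Cps1 (4888 CPM) and Hnf4a (499 CPM) were lowest among HKO livers but above every WT liver.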

How the results depend on the processing

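The 638 genes called over all genes tested became 1014 with DESeq2, and 222 to 599 when 1 liver was left out, with the fewest, 222, without WT replicate 2, 293 without WT replicate 1 and 369 when HKO replicate 4 was dropped. The number of the 7 genes called lower was 1 with DESeq2, limma-voom or dispersions that were not robust, and 0 to 1 when 1 liver was left out. It was 2 with the replicate block, which called 470 of all genes tested over both directions. The share of all genes called lower was not computed with that block or with 1 liver left out, so those counts have no background beside them. Of the 7 genes, 0 were called higher in every alternative. For Elovl5 the log2 fold change was -1.24 with DESeq2, -1.27 with limma-voom, -1.24 without robust dispersions and -1.41 to -1.03 without 1 liver, with adjusted p-values of 0.0039 to 0.196 over 17 alternatives; it passed the threshold without HKO replicate 3 and in no other fit that left out 1 liver. Those ranges without 1 liver were -0.36 to -0.16 for Elovl1, -0.63 to -0.25 for Fads1 and -0.96 to -0.57 for Fads2. Estimates close to 0 changed sign: Elovl2 (-0.0115 with total count scaling, -0.12 to 0.24 without 1 liver), Fads6 (-0.00856 with total count scaling, -0.000202 to 0.12 without 1 liver) and Scd2 (-0.0426 to 0.49 without 1 liver). Total count scaling moves the median of all genes by -0.09 on the log2 scale, which accounts for its 2 reversals; the cause of the other changes was not tested. The replicate numbers do not pair the livers: same-numbered livers had correlations of -0.15 to 0.01 in their deviations from the genotype means, and with the replicate block Elovl5 stood at -1.28 (edgeR adjusted p = 0.0219) and Fads2 at -0.80 (edgeR adjusted p = 0.0202). The ratio differences without 1 liver ranged over 1.18 to 1.45 for Elovl2 to Elovl5, 0.20 to 0.37 for Fads1 to Fads2, 0.72 to 1.13 for Elovl1 to Elovl5 and 0.37 to 0.59 for Fads2 to Elovl5, and compared by number they could not fall below an exact p of 0.125.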
